A study of Mus musculus with 17 samples.

Results

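The collagen genes are the protein-coding mouse genes whose symbol is Col followed by a digit, and 45 of the 38355 gene identifiers in the count files met that rule. One of them, Col4a3bp, encodes a ceramide transfer protein and no collagen chain, so 44 genes are described here as collagens: 11 fibrillar, 8 of the basement membrane (the 6 type IV chains with Col15a1 and Col18a1) and 25 others. RNA of hand-dissected hippocampus from untreated wild type C57BL/6J mice was sequenced in 2 separate experiments, which asked how the hippocampal transcriptome differs between young adult and old animals. The first held 5 single-end libraries at 3 months (3M) and 6 at 24 months (24M), and the second held 3 paired-end libraries at 3M and 3 at 29 months (29M). Strain, genotype and absence of treatment were common to every group, and the labels give no line, transgene or pooling. All 24M libraries were single-end and all 29M libraries paired-end, so age and library type cannot be told apart between the old groups, and each old group was compared with the 3M group of its own experiment.

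Collagens are built from 3 polypeptide chains wound into a triple helix, and the chains of one molecule are often products of different genes. Fibrillar collagens form the tensile cables of connective tissue, type IV collagen is the sheet-forming scaffold of basement membranes, and the remaining families include network formers, beaded filaments, molecules that sit on fibrils and transmembrane collagens. Brain parenchyma holds little fibrillar collagen. Its collagens lie mainly in vessel walls, meninges and choroid plexus, while a few, such as the transmembrane type XXV collagen, are made by neurons.

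The summed gene counts of a library were 19144461 to 28438296 in the single-end 3M group, 9213474 to 19756411 at 24M, 10977976 to 15054972 in the paired-end 3M group and 10991389 to 13563541 at 29M. Replicates 1 and 4 of the 24M group differed by less than counting noise and entered every test as their mean, so that n = 5 at 24M. A single transcript annotated over a ribosomal RNA repeat, Gm42418, took 2.4% of the gene counts in 3M paired-end replicate 1 and 4.59% in 29M replicate 2, and no more than 0.232% in any other library. All 8 hippocampal neuron markers were above 0 in every sample, with a summed level of 4720 to 5832 CPM (counts scaled to a common library total by edgeR's TMM method). Snap25 and Slc17a7 made up most of this sum, with means of 2332 and 1355 CPM in the paired-end 3M samples, where the sum had a mean of 4850 CPM. Striatal markers summed to 409 CPM in 3M single-end replicate 4 and to between 96.3 and 171 CPM in every other sample. Neocortex markers, 8 genes with none at 0, summed to 197 to 298 CPM in the single-end 3M samples and 157 to 172 CPM at 24M, without overlap, and to 169 to 192 CPM at 3M and 155 to 182 CPM at 29M, and their part in the collagen values was not tested. Nothing in the labels says whether libraries of different ages came from paired or littermate animals. The main tests took the samples as independent. Their p-values set each difference against a spread between samples that edgeR estimates partly across genes.

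At 24M the collagen genes lay, as a group, where the other genes lay, and 1 of them fell: Col6a4, a chain of the type VI beaded filaments, was lower in every 24M sample than in any 3M sample of its experiment. At 29M the collagens lay above the other genes, with a median log2 fold change of 0.20 against -0.0021 for all genes tested, and 2 rose: Col6a1, another type VI chain, and Col27a1, which encodes a fibrillar chain best known from cartilage. The vessel-wall and connective tissue chains Col4a1, Col4a2, Col1a1, Col1a2 and Col3a1, passed the test at neither age. A gene was called when its edgeR adjusted p was at most 0.05 and its log2 fold change at least 0.5 in size. Because the tissue was measured in bulk, fewer cells of a type and less RNA per cell cannot be told apart in any of these values.

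The promoters of the 3 called genes are printed first, together with those of a pair of type IV genes that sit head to head with a partner chain. They show the sequence in front of the chains whose levels are compared below. Each window holds 250 bases before and 50 bases after the start given by RefSeq on GRCm38.p6, and is written 5′ to 3′ along the gene's own strand. Capitals mark a GC box (GGGCGG or its reverse complement CCGCCC) or a CCAAT box (CCAAT or ATTGG).
Col6a1, minus strand of chr10:76725995-76726294: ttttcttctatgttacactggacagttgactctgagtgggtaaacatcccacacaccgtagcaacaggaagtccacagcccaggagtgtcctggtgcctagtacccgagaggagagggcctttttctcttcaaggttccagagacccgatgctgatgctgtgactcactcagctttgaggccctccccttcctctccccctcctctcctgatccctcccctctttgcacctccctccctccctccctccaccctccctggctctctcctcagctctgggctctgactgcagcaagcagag
Col27a1, plus strand of chr4:63215162-63215461: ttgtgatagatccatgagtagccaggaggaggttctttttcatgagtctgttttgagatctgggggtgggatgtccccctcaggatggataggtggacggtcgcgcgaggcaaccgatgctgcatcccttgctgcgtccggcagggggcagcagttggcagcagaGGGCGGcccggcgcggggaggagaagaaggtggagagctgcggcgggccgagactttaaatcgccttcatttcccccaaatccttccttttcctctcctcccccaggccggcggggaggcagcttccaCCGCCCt
Col6a4, minus strand of chr9:106096642-106096941: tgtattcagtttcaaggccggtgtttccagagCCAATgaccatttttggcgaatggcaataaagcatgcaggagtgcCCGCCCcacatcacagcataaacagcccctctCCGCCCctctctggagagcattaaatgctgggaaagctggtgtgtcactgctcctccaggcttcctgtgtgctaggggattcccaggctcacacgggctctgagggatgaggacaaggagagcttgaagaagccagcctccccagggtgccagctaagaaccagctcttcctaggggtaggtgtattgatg
Col4a1, minus strand of chr8:11312777-11313076: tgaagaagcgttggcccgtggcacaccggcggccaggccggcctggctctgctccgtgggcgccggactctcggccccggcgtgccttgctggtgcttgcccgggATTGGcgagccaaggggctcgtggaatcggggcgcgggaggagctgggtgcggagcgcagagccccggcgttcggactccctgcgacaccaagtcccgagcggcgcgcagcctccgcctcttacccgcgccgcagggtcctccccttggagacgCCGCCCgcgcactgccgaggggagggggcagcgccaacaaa
Col4a4, minus strand of chr1:82586800-82587099: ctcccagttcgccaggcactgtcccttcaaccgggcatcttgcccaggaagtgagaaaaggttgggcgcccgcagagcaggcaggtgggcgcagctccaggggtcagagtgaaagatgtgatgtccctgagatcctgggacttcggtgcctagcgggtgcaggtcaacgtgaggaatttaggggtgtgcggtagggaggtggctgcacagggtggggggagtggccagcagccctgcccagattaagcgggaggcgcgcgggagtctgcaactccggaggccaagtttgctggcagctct

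Neither motif was found in the Col6a1 window, whereas Col27a1 and Col6a4 each held 2 GC boxes. The Col4a1 window held 1 GC box and 1 CCAAT box, and it also contains the start of Col4a2, which is transcribed the other way: the annotated starts of the genes are 21 bases apart. The Col4a4 window likewise contains the start of Col4a3, 72 bases away, and held neither motif. The remaining type IV pair, Col4a6 and Col4a5 on the X chromosome, starts 1309 bases apart. Windows were found for 35 of the 44 collagen genes, 38 windows in all. A GC box was present in 23 of them (60.5%), against 35.7% of all 32851 promoter windows in the table. The CCAAT box was present in 34.2% of collagen windows and 37.4% of all windows, and TATAAA on either strand in 13.2% and 13.6%. These are counts of letters and say nothing of which factor binds.

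Which collagens the young hippocampus expressed was read from CPM per kilobase of exon, averaged over the 8 3M samples of both experiments, which were normalised separately. Col9a3, a chain of the fibril-associated type IX collagen, stood highest at 13.0 ± 3.65 CPM per kb (SD, n = 8). The network-forming Col8a2 followed at 7.79 ± 3.34, then Col25a1, the neuronal transmembrane collagen also known as the precursor of a plaque component in Alzheimer's disease, at 6.18 ± 0.535. The type IV chains Col4a2 and Col4a1 stood at 5.64 ± 0.873 and 4.73 ± 0.645, and Col8a1, the partner chain of Col8a2, at 3.92 ± 1.78. Ranges of neighbours in this order overlapped, so that Col25a1 (5.58 to 6.92), Col4a2 (4.94 to 7.52) and Col8a2 (3.57 to 13.1) could not be ranked against each other. In the paired-end 3M samples Col25a1 (6.24) stood above Col8a2 (6.17), in the single-end ones below it (6.14 and 8.76). Among the fibrillar chains Col11a2 was highest at 2.69 ± 0.314 CPM per kb, above Col1a2 at 1.86 ± 0.310 and Col1a1 at 1.78 ± 0.379. Col24a1 and Col10a1, both with too few reads to test, lay at the bottom at 0.0417 ± 0.0120 and 0.0431 CPM per kb, with overlapping ranges. Exons of Col9a3 overlap 234 bases of Tcfl5 on the other strand, and the sources used here do not state whether reads were counted by strand.

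In the comparison of 24M with 3M, 41 collagen genes were tested, and Col10a1, Col24a1 and Col28a1 had too few reads. Their median log2 fold change was 0.00069, beside -0.0032 for all 15683 genes tested, and 21 lay above 0 (49.2% of all genes did). None was called higher and 1 lower, where 1.98% of all genes were called (1.34% higher and 0.638% lower). No collagen gene had all 24M samples above all 3M samples, against 3.15% of all genes, and Col6a4 and Col20a1 had all of them below, against 3.42%. At an unadjusted p under 0.05, 1 collagen gene was higher and 4 were lower, which is 2.44% and 9.76% of those tested where all genes gave 14% and 12.1%. The plot of fold changes by class shows these values gene by gene.

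**Figure D1:**
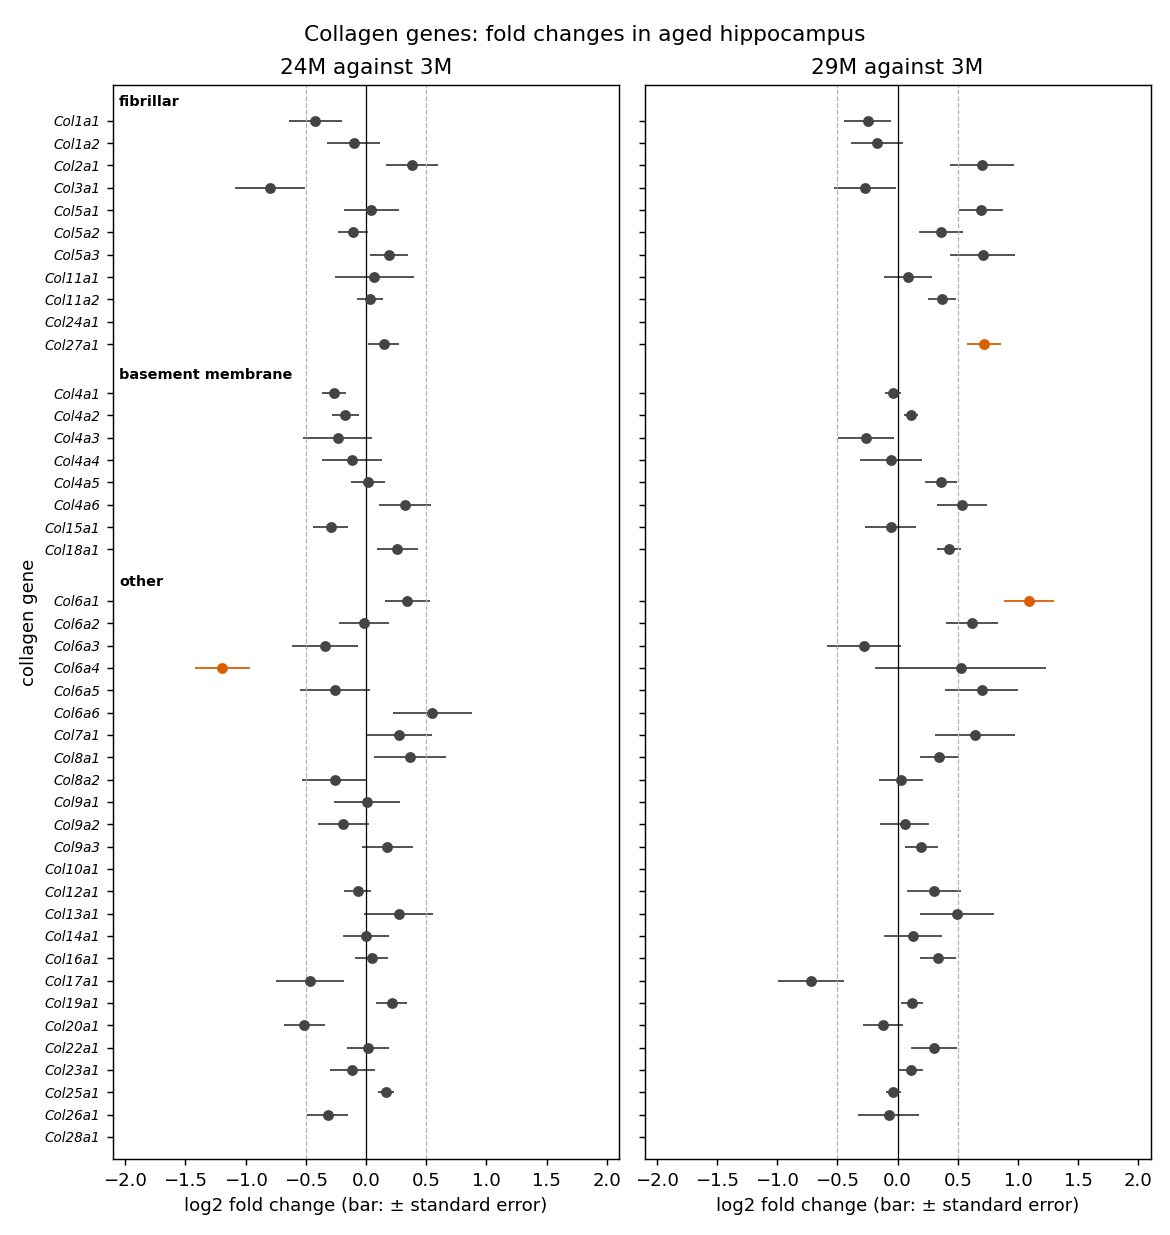
Log2 fold change (x axis) of each tested collagen gene (y axis) at 24M (left) and 29M (right) against the 3M group of the same experiment. Bars are standard errors, dashed lines mark a log2 fold change of 0.5 in either direction, orange points are called genes (Col6a4 at 24M, Col6a1 and Col27a1 at 29M) and genes without a point had too few reads to test. At 29M 27 of 39 points lie above 0, and at 24M 21 of 41 do.

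Col6a4 encodes a long type VI chain that can take the place of the longest chain of the molecule. Its level in the single-end 3M samples was 3.36, 1.77, 2.12, 1.73 and 1.98 CPM, and in the 24M samples it was 0.834, 0.986, 1.19, 0.792 and 0.968 CPM. The groups did not overlap, and the log2 fold change was -1.20 ± 0.23 (SE, edgeR adjusted p = 0.0151). In the paired-end libraries the same gene was at 0, 0.851 and 3.78 CPM at 3M and at 2.02, 3.61 and 0.945 CPM at 29M (log2 fold change 0.52 ± 0.71, edgeR adjusted p = 0.763). The library at 0 allows a level of up to 0.255 CPM, for counting error only. The 3M paired-end values thus ran from no reads to above the highest single-end value, and the groups overlapped fully. With all 4 groups in 1 fit the 24M difference did not pass (edgeR adjusted p = 0.108).

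Col20a1, a fibril-associated chain, was at 6.37, 4.78, 3.96, 4.84 and 3.80 CPM at 3M and at 2.92, 2.43, 3.71, 3.73 and 3.76 CPM at 24M. Every 24M sample lay below every 3M sample, narrowly so at the closest (3.76 and 3.80 CPM), and the log2 fold change of -0.51 ± 0.17 did not pass the test (edgeR adjusted p = 0.0841). It passed without 3M single-end replicate 5 (adjusted p = 0.0368), with the 24M libraries kept apart (0.0416) and with all 4 groups in 1 fit (0.0344). At 29M it was -0.12 ± 0.16, with the 3M and 29M samples overlapping. The oligodendrocyte precursor list, of which 7 markers were tested and none was at 0 in any sample, summed to 223 to 236 CPM at 3M and 193 to 220 CPM at 24M in the single-end libraries. Of these markers only Gpr17, found in newly forming oligodendrocytes, was called (14.3% at each age, beside 1.98% and 1.45% of all genes): it fell at both ages, by 0.997 at 24M and by 0.953 at 29M on the log2 scale (edgeR adjusted p = 0.00011 and 2.8e-05). With Gpr17 counted, 4 of 7 lay above 0 at 24M (median 0.03) and 3 of 7 at 29M (median -0.18). At an unadjusted p under 0.05, 2 were lower and 0 higher at 24M (28.6% lower, beside 12.1% of all genes). At 29M 1 was lower and 1 higher (14.3% each, beside 7.48% and 9.86% of all genes). Without Gpr17 the sum was 165 to 177 CPM at 3M and 167 to 189 CPM at 24M. The part of these cells in the Col20a1 values was not tested.

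The type I and III chains make up the classical interstitial fibres of vessel adventitia and meninges. Col3a1 was at 5.91, 5.66, 7.59, 3.36 and 3.85 CPM at 3M and at 2.57, 3.34, 1.29, 4.58 and 3.76 CPM at 24M, a log2 fold change of -0.80 ± 0.29 that did not pass (edgeR adjusted p = 0.107). Its values overlapped, and 24M replicate 3 was far below the other 24M samples: without it the fold change was -0.58. Col1a1 gave -0.42 ± 0.22 (edgeR adjusted p = 0.239), from 9.04 to 14.8 CPM at 3M and 4.95 to 12.8 CPM at 24M. Col1a2 gave -0.10 ± 0.22 (95% interval -0.57 to 0.37), and without 24M replicate 3 its sign turned to 0.10. At 29M the chains gave -0.25 ± 0.19 for Col1a1, -0.17 ± 0.22 for Col1a2 and -0.27 ± 0.26 for Col3a1, with 29M replicate 2 lowest for each. Col3a1 was there at 3.31, 3.53 and 3.78 CPM at 3M and at 3.45, 1.52 and 3.63 CPM at 29M, so that a single sample separated the groups, and without it the difference was 0.0031.

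The same libraries were lowest of their age group for a sum of 3 contractile vessel genes. The sum of Acta2, Tagln and Myh11, which mark smooth muscle of arteries and were picked after their values were seen, was 18.8 CPM in 24M replicate 3 and 31.7 to 51.6 CPM in the other 24M samples. In 29M replicate 2 it was 13.1 CPM, against 34.5 and 41.6 CPM in the other 29M samples, and the 3M samples of both experiments ran from 21.9 to 38.6 CPM. The full list of 10 pericyte and smooth muscle markers, none at 0 in any sample, summed to 212 to 268 CPM at 3M and 264 to 341 CPM at 24M in the single-end libraries, and to 244 to 267 CPM at 3M and 195 to 275 CPM at 29M in the paired-end libraries. On that list 24M replicate 3 was lowest at 24M but inside the 3M range, and 29M replicate 2 was below all paired-end 3M samples. The 11 measured markers of meningeal and perivascular fibroblasts, the cells known for type I collagen, all had log2 fold changes above 0 at 24M (median 0.31) and 9 of 11 did at 29M (median 0.21). Their summed level was 340 to 459 CPM at 3M and 334 to 610 CPM at 24M, and 335 to 458 CPM at 3M and 364 to 437 CPM at 29M, with no marker at 0. Most of that was Igf2, with a mean of 260 CPM in the single-end and 240 CPM in the paired-end 3M samples. Without Igf2 the sum was 81.3 to 177 CPM at 3M and 109 to 238 CPM at 24M, and 108 to 165 CPM at 3M and 122 to 165 CPM at 29M. Replicate 3 of the single-end 3M group was lowest of that group with Igf2 and highest without it. Among the old samples 24M replicate 3 and 29M replicate 2 were again lowest, with and without Igf2. Of this list Ogn and Lum were called higher at 24M (18.2%, beside 1.34% of all genes). What these markers contribute to the type I and III values was not tested.

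**Figure D2:**
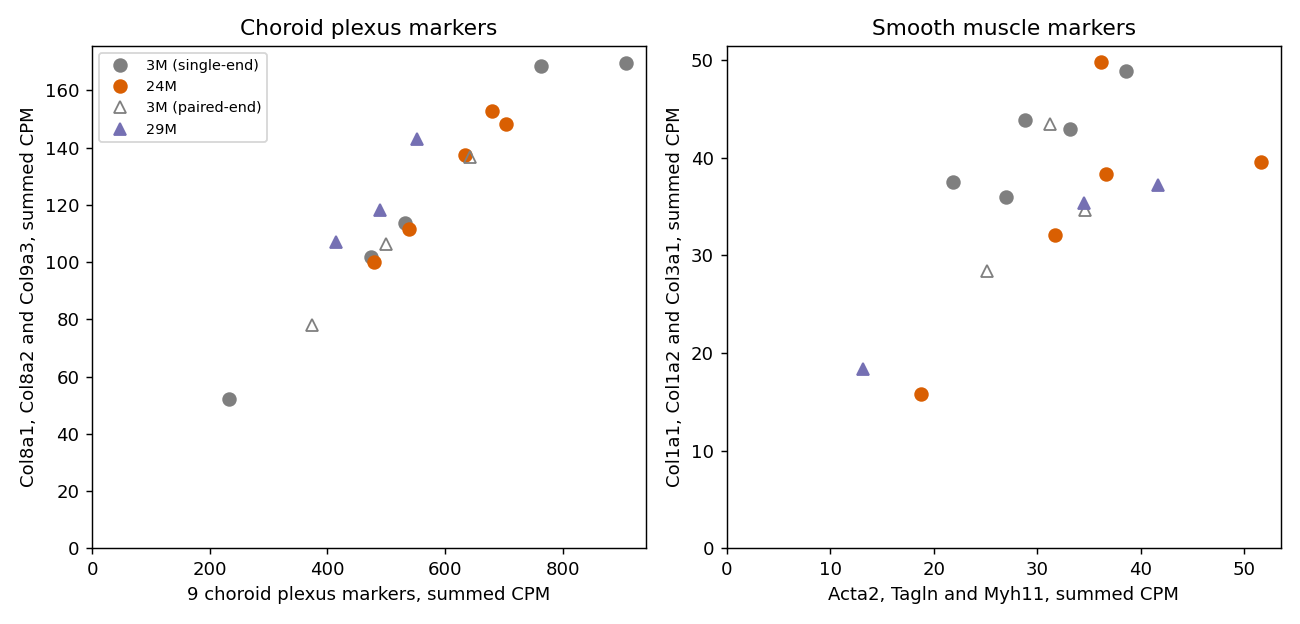
Each point is 1 sample, with circles for single-end and triangles for paired-end libraries. Left, the summed CPM of Col8a1, Col8a2 and Col9a3 (y axis) against the summed CPM of 9 choroid plexus markers (x axis): 3M single-end replicate 3 is lowest on both axes, at 52.1 and 232 CPM. Right, the summed CPM of Col1a1, Col1a2 and Col3a1 against that of Acta2, Tagln and Myh11: 24M replicate 3 (15.8 CPM of collagens) and 29M replicate 2 (18.4 CPM) lie apart at the lower left. These smooth muscle markers were picked from a longer list after their values were seen.

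Col8a1, Col8a2 and Col9a3, high on the per-length scale above, varied more between young animals than between ages. Col8a1 was at 21.8, 30.3, 12.2, 46.0 and 53.6 CPM at 3M and at 33.1, 47.9, 38.9, 47.3 and 42.8 CPM at 24M (log2 fold change 0.37 ± 0.30, edgeR adjusted p = 0.456). Col8a2 was at 32.3, 37.1, 16, 58.6 and 52.7 CPM at 3M and at 24.5, 36.0, 26.1, 42.1 and 34.9 CPM (-0.26 ± 0.27). Col9a3 was at 47.6, 46.2, 23.9, 64.0 and 63.4 CPM at 3M and at 42.4, 64.5, 46.6, 63.6 and 59.7 CPM (0.18 ± 0.21). All had their lowest value in 3M replicate 3 and their highest 3M values in replicates 4 and 5. The same order held for choroid plexus markers, the genes of the epithelium that makes cerebrospinal fluid: all 10, none at 0 in any sample, summed to 2073 CPM in 3M replicate 3 and to 7948 and 8588 CPM in replicates 4 and 5, with 4721 to 7912 CPM at 24M. Without Ttr the sum was 232 CPM in 3M replicate 3, 763 and 908 CPM in replicates 4 and 5, and 479 to 703 CPM at 24M. In the paired-end experiment all 10 markers summed to 3538, 5025 and 6459 CPM at 3M and 5388, 6375 and 4184 CPM at 29M. Ttr made up most of this sum, with a mean of 4502 CPM at 3M where the sum had a mean of 5007 CPM. In the same experiment Col8a1 was at 20.0, 25.1 and 36.6 CPM at 3M and at 34.7, 39.5 and 29.8 CPM at 29M (0.35 ± 0.16, edgeR adjusted p = 0.294), a difference that was called without 3M replicate 3 (0.60, edgeR adjusted p = 0.0297). With no filter on low counts it passed the adjusted p (0.000371, edgeR) at 0.35, short of the fold change required. The fold change was that of the main fit, so the lower p came with no larger difference. The basement membrane chains Col4a3 and Col4a4 and the hemidesmosome collagen Col17a1 also had their lowest single-end 3M value in replicate 3. Choroid plexus content was not tested as a source of these differences.

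Col17a1, a transmembrane collagen that anchors epithelia, was the only collagen tested with all 29M samples below all 3M samples, where 10.5% of all genes were. It was at 2.04, 2.16 and 3.15 CPM at 3M and at 1.85, 1.05 and 1.45 CPM at 29M, and the difference of -0.72 ± 0.27 on the log2 scale did not pass (edgeR adjusted p = 0.192). At 24M it was -0.46 ± 0.28 (edgeR adjusted p = 0.314).

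Comparing 29M with 3M, 39 collagen genes could be tested, and Col6a6, Col9a1, Col10a1, Col24a1 and Col28a1 had too few reads. Of these, 27 lay above 0, where 49.4% of the 15097 genes tested did. The test called 2 higher and 0 lower, beside 1.45% of all genes called (1.34% higher and 0.113% lower). All 29M samples lay above all 3M samples in 12 collagen genes (30.8% of those tested, against 11.9% of all genes), namely Col2a1, Col5a1, Col5a3, Col27a1, Col4a2, Col4a5, Col4a6, Col18a1, Col6a1, Col16a1, Col19a1 and Col22a1. At an unadjusted p under 0.05, 12 were higher and 1 was lower (30.8% and 2.56%, where all genes gave 9.86% and 7.48%, 17.3% in all). By the adjusted p alone, with any fold change, Col18a1 joined the called genes, and 2.99% of all genes passed. No test was made of the collagen genes as a set. By DESeq2 no collagen gene was called at 29M.

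Type VI collagen forms beaded filaments around cells, from one chain each of the products of Col6a1 and Col6a2 and of a longer partner. Col6a1 was at 11.3, 7.92 and 14.4 CPM at 3M and at 19.3, 19.3 and 30.8 CPM at 29M. The groups did not overlap, and the log2 fold change was 1.09 ± 0.20 (edgeR adjusted p = 0.0104). The call was lost without 29M replicate 3, the highest sample, where the fold change was 0.81 (adjusted p = 0.0527), by DESeq2 (1.05, adjusted p = 0.0779) and with all 4 groups in 1 fit (1.07, adjusted p = 0.101). DESeq2 with a zero-centred prior, which draws estimates towards 0, gave 0.20 (adjusted p = 0.0845). At 24M the gene was at 12.9, 15.7, 14.5, 12.8 and 7.86 CPM in the young and at 15.3, 12.4, 17.6, 22.7 and 12 CPM in the old samples, a log2 fold change of 0.34 ± 0.19 (95% interval -0.06 to 0.75).

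Col6a2, its neighbour on chromosome 10 and its obligate partner chain, was at 7.64, 5.04 and 9.08 CPM at 3M and at 8.24, 9.89 and 14.2 CPM at 29M. These values overlapped, and the difference of 0.62 ± 0.22 did not pass (edgeR adjusted p = 0.160). At 24M Col6a2 gave -0.01 ± 0.21 (95% interval -0.46 to 0.43). The ratio of Col6a2 to Col6a1 CPM was 0.631 to 0.677 in the paired-end 3M samples and 0.428 to 0.512 at 29M, without overlap (two-sided exact permutation p = 0.1, the smallest that 3 against 3 samples can give, adjusted p = 0.222 over 8 ratios tested). In the single-end samples it was 0.575 to 0.745 at 3M and 0.384 to 0.714 at 24M, where the groups overlapped (exact permutation p = 0.0714, 24M replicate 3 being lowest). Col6a3, the usual long chain, was at 4.24, 10.8 and 3.96 CPM at 3M and 5.47, 4.95 and 5.81 CPM at 29M (-0.28 ± 0.31), so that 3M replicate 2 alone set its direction, and without it the fold change was 0.40. Col6a5 was 0.70 ± 0.30 higher at 29M without passing (edgeR adjusted p = 0.255). Col6a6 was tested at 24M only, at 0.55 ± 0.33 (edgeR adjusted p = 0.309), from levels under 1 CPM in every single-end sample.

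**Figure D3:**
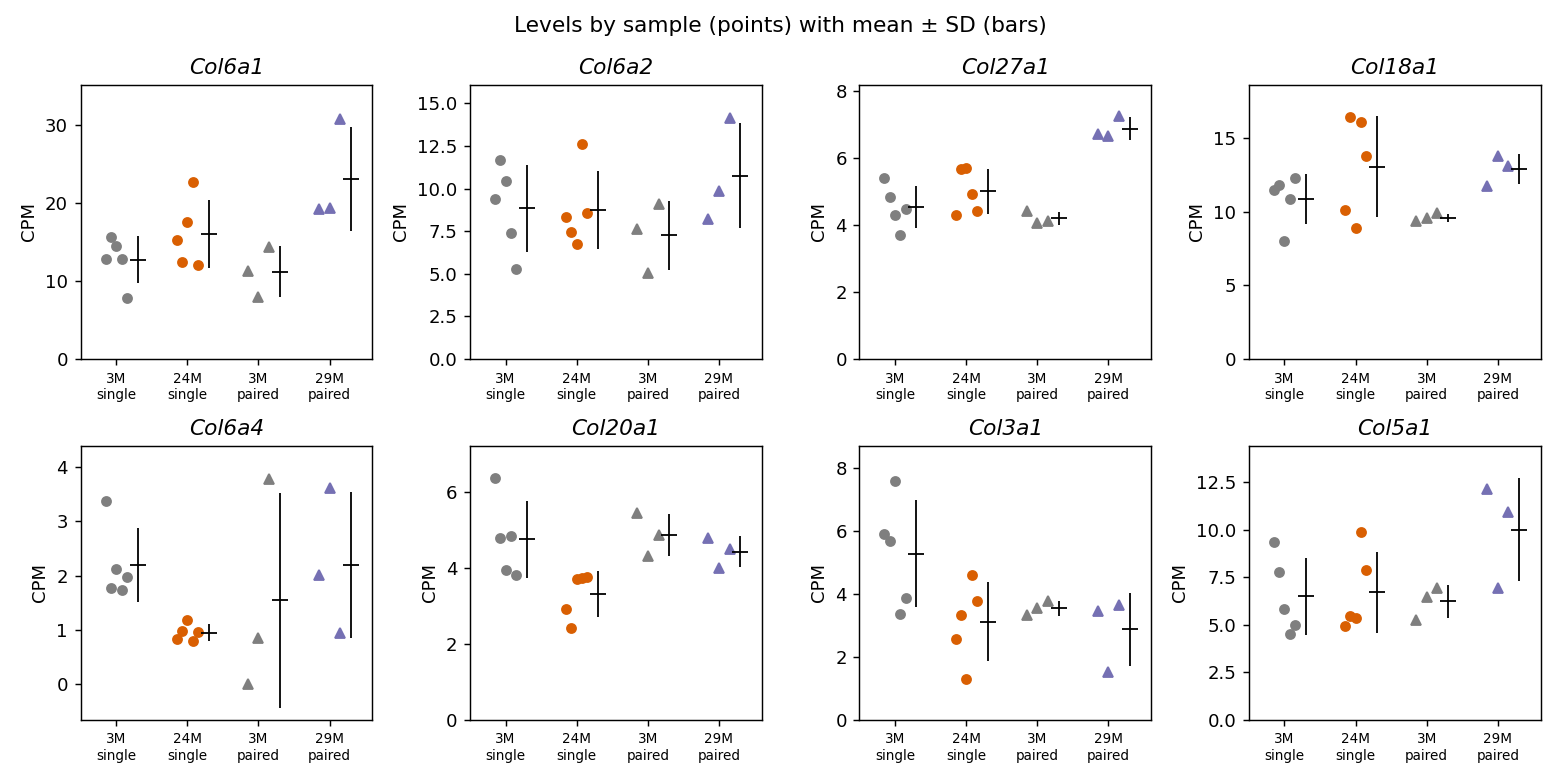
CPM (y axes, each from its own 0 except Col6a4, whose SD bar passes below 0) of 8 collagen genes in the 4 groups. Gray marks 3M, orange 24M and purple 29M, each point is 1 sample, and the bars give the mean and SD. All 29M points of Col6a1, Col27a1, Col18a1 and Col5a1 lie above their paired-end 3M points, and all 24M points of Col6a4 and Col20a1 lie below their single-end 3M points.

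Among the fibrillar chains 10 were tested at each age. At 29M their median log2 fold change was 0.36, with 7 above 0, 1 called higher (10%, beside 1.34% of all genes) and 5 higher at an unadjusted p under 0.05 (50%, beside 9.86%). At 24M the median was 0.04, with 6 above 0, none called by edgeR and 1 (Col3a1) lower at an unadjusted p under 0.05 (10%, beside 12.1%). Col27a1 was at 4.41, 4.06 and 4.14 CPM at 3M and at 6.73, 6.66 and 7.27 CPM at 29M. Both groups were tight and well apart, and the log2 fold change was 0.72 ± 0.14 (edgeR adjusted p = 0.0134). Its adjusted p rose above 0.05 when 3M replicate 2 (0.0571), 3M replicate 3 (0.0631), 29M replicate 1 (0.0699) or 29M replicate 3 (0.0875) was left out, while the fold change stayed between 0.67 and 0.75 in all 6 such fits. DESeq2 gave 0.71 (adjusted p = 0.0919), and 0.24 with a zero-centred prior (adjusted p = 0.0882). In the single-end libraries Col27a1 was at 5.41, 4.83, 4.31, 3.72 and 4.50 CPM at 3M and at 4.31, 5.69, 5.72, 4.92 and 4.41 CPM at 24M, overlapping throughout, with a log2 fold change of 0.15 ± 0.13 (95% interval -0.13 to 0.43).

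Type V collagen is a minor fibril component that sets fibre diameter. Col5a1 was at 5.26, 6.48 and 6.92 CPM at 3M and at 12.1, 6.94 and 10.9 CPM at 29M. Its lowest 29M sample, replicate 2, all but touched the highest 3M sample, and the difference of 0.69 ± 0.18 did not pass (edgeR adjusted p = 0.0632). Col5a3 gave 0.71 ± 0.27 (edgeR adjusted p = 0.195), with 1.02, 2.42 and 2.43 CPM at 3M and 3.03, 3.52 and 3.20 CPM at 29M. Col2a1, the cartilage fibril chain, gave 0.70 ± 0.26 (edgeR adjusted p = 0.191) from levels of 1.08 to 1.61 CPM at 3M and 1.71 to 2.76 CPM at 29M. Col11a2, the most abundant fibrillar chain per length, gave 0.37 ± 0.12 at 29M (edgeR adjusted p = 0.116) and 0.04 ± 0.11 at 24M (95% interval -0.19 to 0.27). Col5a1 and Col5a2 gave 0.04 ± 0.23 and -0.11 ± 0.13 at 24M. The fibrillar genes called or nearest to it at 29M were thus not the type I and III chains, all of which lay below 0 there.

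All 8 basement membrane collagens were tested, and none was called at either age by edgeR. At an unadjusted p under 0.05, Col4a1 was lower at 24M (12.5%, beside 12.1% of all genes) and Col4a5, Col4a6 and Col18a1 were higher at 29M (37.5%, beside 9.86%). The median log2 fold change was -0.14 at 24M, with 3 above 0, and 0.04 at 29M, with 4 above 0. Col4a1 and Col4a2 encode the chains of the ubiquitous type IV network of vessels. At 24M Col4a1 was at 44.5, 39.3, 37.4, 32.9 and 34.2 CPM in young and at 31.1, 25.9, 37.7, 31.2 and 30.3 CPM in old samples, a difference of -0.26 ± 0.10 that did not pass (edgeR adjusted p = 0.116). Col4a2 gave -0.17 ± 0.11 (edgeR adjusted p = 0.364). At 29M both were bounded closely: Col4a1 gave -0.04 ± 0.07 (95% interval -0.19 to 0.11) and Col4a2 0.11 ± 0.06 (-0.02 to 0.24), and the 29M values of Col4a2 (36.3, 37.0 and 36.5 CPM) lay just above those at 3M (35.2, 32.9 and 33.7 CPM). The ratio of Col4a2 to Col4a1, whose starts share a window, was 1.06 to 1.13 at 3M and 1.13 to 1.28 at 29M in the paired-end libraries, where the groups just missed each other. Its two-sided exact permutation p of 0.1 (adjusted p = 0.222) was the same as for Col6a2 to Col6a1 in these libraries. In the single-end libraries the ratio was 0.955 to 1.12 at 3M and 0.980 to 1.23 at 24M (exact permutation p = 0.175).

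Endothelial markers bear on the same vessels, and 10 were measured with none at 0. Their summed level was 232 to 282 CPM at 3M and 258 to 293 CPM at 24M, and 222 to 253 CPM at 3M and 208 to 232 CPM at 29M. At 24M 6 of the 10 lay above 0 (median 0.08), with Flt1, Slco1a4 and Emcn higher at an unadjusted p under 0.05 (30%, beside 14% of all genes). The marker called (10%, beside 1.98% of all genes) was lower: Cldn5, a tight junction protein of endothelium, fell by 0.60 on the log2 scale (edgeR adjusted p = 0.0242). At 29M 9 of the 10 lay below 0 (median -0.13) and none was called by edgeR, with 3 lower and 1 higher at an unadjusted p under 0.05 (30% and 10%, beside 7.48% and 9.86% of all genes). Their part in the type IV values was not tested.

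The minor type IV chains were lower and less certain. Col4a5 and Col4a6 had all 29M samples above all 3M samples, at 0.36 ± 0.13 and 0.54 ± 0.21 (edgeR adjusted p = 0.178 and 0.203), whereas Col4a3 and Col4a4, found in specialised membranes such as those of kidney, gave -0.26 ± 0.23 and -0.06 ± 0.26. At 24M the 4 genes gave 0.02 ± 0.14, 0.33 ± 0.21, -0.24 ± 0.29 and -0.12 ± 0.25 in that order. Ratios within the head-to-head pairs overlapped between ages for Col4a4 to Col4a3 in both experiments, and for Col4a6 to Col4a5 they were 0.293 to 0.337 at 3M and 0.317 to 0.370 at 29M.

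Col18a1 and Col15a1 encode basement membrane proteoglycans whose C-terminal fragments are the inhibitors of vessel growth endostatin and restin. Col18a1 was at 9.34, 9.56 and 9.89 CPM at 3M and at 11.8, 13.8 and 13.1 CPM at 29M. The groups did not overlap, and its log2 fold change of 0.42 ± 0.10 passed the adjusted p (0.0391, edgeR) without reaching the fold change required. It missed the adjusted p in each of the 6 fits that left out a sample (0.0699 to 0.148). At 24M its values of 8.87 to 16.5 CPM overlapped those of 8.02 to 12.3 CPM at 3M (0.26 ± 0.17, edgeR adjusted p = 0.353). Col15a1 gave -0.29 ± 0.15 at 24M (95% interval -0.61 to 0.02) and -0.06 ± 0.21 at 29M (-0.52 to 0.40).

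**Figure D4:**
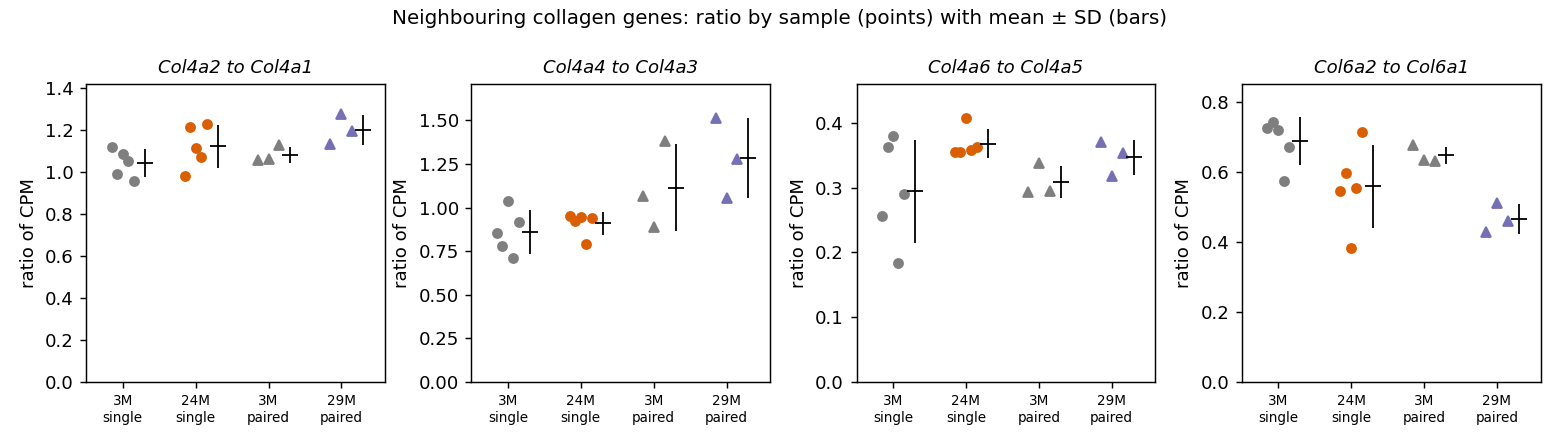
Ratio of CPM (y axes, from 0) between collagen genes that neighbour each other in the genome and encode chains of the same family, by group. Each point is 1 sample and the bars give the mean and SD. The ratio of Col6a2 to Col6a1 is 0.428 to 0.512 at 29M, below all paired-end 3M samples (0.631 to 0.677), while the groups of the Col4a4 to Col4a3 and Col4a6 to Col4a5 pairs overlap in both experiments and those of Col4a2 to Col4a1 overlap in the single-end libraries and are narrowly apart in the paired-end ones.

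Col25a1, made by neurons, was called at neither age by edgeR. Its level was 73.3, 77.7, 87.2, 72.3 and 87.0 CPM at 3M and 87.2, 92.9, 96.9, 86.8 and 82.1 CPM at 24M, a log2 fold change of 0.17 ± 0.07 (edgeR adjusted p = 0.135), and -0.04 ± 0.06 at 29M (95% interval -0.17 to 0.10). In the class of other collagens, Col25a1 and Col6a1 included, 12 of 23 tested lay above 0 at 24M, with a median of 0.00069. At 29M 16 of 21 did, with a median of 0.20, where 49.4% of all genes lay above 0. Summed over each class, fibrillar collagens were at 74.2 to 93.2 CPM at 3M and 67.8 to 95.2 CPM at 24M, and at 66.3 to 88.4 CPM at 3M and 72.3 to 99 CPM at 29M. Basement membrane collagens summed to 90.4 to 95.4 CPM in the paired-end 3M samples and 99.5 to 102 CPM at 29M, where the groups did not overlap, and to 101 to 125 CPM and 88.1 to 107 CPM at 3M and 24M, where they did. The other collagens summed to 239 to 342 CPM at 3M and 278 to 358 CPM at 24M. In the paired-end libraries they summed to 239 to 315 CPM at 3M and 312 to 327 CPM at 29M, and the groups overlapped in both experiments. Col4a3bp, which is no collagen, gave 0.23 ± 0.08 at 24M (edgeR adjusted p = 0.0923) and 0.01 ± 0.05 at 29M.

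Whether the collagen genes responded differently at 29M than at 24M was tested directly, as the difference between the fold changes in a fit of all samples. None of the 41 collagen genes tested passed, and none of the 16055 genes did (0%), by edgeR and by DESeq2. At an unadjusted p under 0.05, 3 collagen genes differed, beside 10.4% of all genes. The smallest adjusted p belonged to Col27a1, whose fold change was 0.56 ± 0.19 larger at 29M (0.392), and the difference for Col6a1 was 0.72 ± 0.34 (0.469). Col6a4 gave the largest difference of the genes described, 1.71 ± 0.82 (0.480). The higher collagen values at 29M are thus not shown to be particular to that age.

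The genes that make, cross-link, bind and break down collagen were counted in the same way. Of 26 genes of collagen synthesis and processing, such as the prolyl hydroxylases and the collagen chaperone Serpinh1, 0 were called at either age by edgeR, with medians of 0.02 at 24M and 0.05 at 29M, and at an unadjusted p under 0.05 1 was higher and 1 lower at 24M (3.85% each, where all genes gave 14% and 12.1%) and 6 were higher and 1 lower at 29M (23.1% and 3.85%, where all genes gave 9.86% and 7.48%). Bmp1, which trims the C-terminal propeptide of fibrillar procollagens, came nearest at 29M, at 0.39 ± 0.10 (edgeR adjusted p = 0.0572). The lysyl oxidases, 5 tested at 24M and 4 at 29M, and the 16 laminins and other basement membrane partners gave no call by edgeR. At an unadjusted p under 0.05 none of the lysyl oxidases moved, while 1 basement membrane partner was lower at 24M and 1 higher at 29M (6.25% each, below the 12.1% and 9.86% of all genes).

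Among the 12 tested genes of collagen breakdown and its inhibitors, Timp1, an inhibitor of matrix metalloproteinases, was called at 29M (8.33%, beside 1.45% of all genes). It was at 0.170, 0.131 and 0 CPM at 3M, near the limit of detection (0.270 CPM in the library at 0), and at 0.925, 1.14 and 1.31 CPM at 29M, with a fitted log2 fold change of 3.32 ± 0.52 (edgeR adjusted p = 0.00364) that depends on the handling of such low counts. In the single-end libraries Timp1 was at 0.247 to 0.636 CPM at 3M and 0.509 to 1.08 CPM at 24M. These values overlapped, and the difference of 0.59 ± 0.30 did not pass (edgeR adjusted p = 0.230). At 24M none of the 12 was called by edgeR, and 5.58% of all genes passed the adjusted p. Of the 12, 4 passed it short of the fold change required (3 at -0.40 to -0.28 and 1 at 0.39). These were the membrane collagenase genes Mmp14 and Mmp15 at -0.40 each (edgeR adjusted p = 0.0242 and 0.0197), and the inhibitors Timp4 at -0.28 (0.0344) and, in the other direction, Timp3 at 0.39 (0.0294).

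Of 9 tested collagen receptors only Lair1, an inhibitory receptor of immune cells, was called, and at both ages: it was at 6.96, 10.1, 6.78, 6.73 and 9.73 CPM at 3M and 10.2 to 13.0 CPM at 24M (0.53 ± 0.14, edgeR adjusted p = 0.0406), and at 6.11, 8.57 and 8 CPM at 3M and 11.3, 11.6 and 12.3 CPM at 29M (0.62 ± 0.13, edgeR adjusted p = 0.0180). That is 11.1% of the receptors at each age, beside 1.98% of all genes at 24M and 1.45% at 29M. Of the 8 small leucine-rich proteoglycans tested, which coat collagen fibrils, Ogn rose by 0.96 ± 0.21 and Lum by 0.85 ± 0.20 at 24M (edgeR adjusted p = 0.0226 and 0.0306). These calls made up 25% of the list, beside 1.98% of all genes. Both genes are also on the fibroblast list, so these are the same calls as those given there. The groups overlapped for both. In 24M replicate 3, the lowest at 24M, Ogn was at 12.9 CPM and Lum at 5.05 CPM, below the highest 3M values of 14.5 and 5.66 CPM. At 29M Ogn gave 0.21 ± 0.21 and Lum -0.04 ± 0.28. These fibril-coating genes were therefore called in the experiment in which no fibrillar collagen was, and the difference between the experiments was not shown by the test above for any gene.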

How the data were processed

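Polyadenylated RNA of hippocampus was sequenced (TruSeq) in 17 libraries. The authors called bases with CASAVA, aligned reads to GRCm38.p2 with STAR 2.3.0, assigned them to genes with HTSeq and deposited raw counts per gene, without normalization; the annotation release and strand setting are not stated in the sources used here. Rows that name no gene stayed out (reads without a feature were 8.59% to 15.9% of a library). Names, gene positions and exon lengths come from GENCODE M21 (GRCm38), which named 36602 of 38355 identifiers, and promoters from RefSeq, GRCm38.p6.

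Counts were tested with edgeR 4.0.16 in R 4.3.3 (TMM, default filter on low counts, quasi-likelihood test, Benjamini-Hochberg over all genes tested), each old group against its own 3M group. Standard errors were obtained from the log2 fold change and the F statistic of each gene, and 95% intervals use the t distribution with the fit's degrees of freedom. No sample was imputed. The steps were tested on simulated data. The 24M replicates 1 and 4 differed by 0.406 of the variance that counting gives (next lowest of 136 pairs, 1.23), so their rounded mean was 1 sample. Ratios of neighbouring genes, chosen after the levels were seen, were compared by exact permutation tests. Levels per kb divide CPM by the length of the merged exons. Depth limits genes under 1 CPM.

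Alternatives were DESeq2 1.42.0 with and without a zero-centred prior, its size factors, no filter, a filter of 1 CPM, all groups in 1 fit, the replicate number as a block, the 24M pair kept apart or left out, no fold change threshold and each library left out. The collagen genes, classes, marker lists and tests were chosen with earlier results of these data known. Genes given in full were those called, the 3 largest changes each way in each comparison, the 3 highest per length of each class, the textbook chains, and the 2 nearest to passing when the ages were set against each other. Col5a1, Col5a2, Col6a5, Col11a1, Col4a3 to Col4a6, Mmp3, Mmp14, Mmp15, Timp3, Timp4, Bmp1, the cell markers named singly and the sum of Acta2, Tagln and Myh11 were added after their values were seen.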

Additional observations from a re-analysis of the deposited data

Results flagged for a closer look

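A check for a sample far from the others covered 44 groups of collagen values, which is not every collagen gene in every group. In it 1 group stood out, where chance alone gives about 2.2. It was Col6a4 in the single-end 3M group, in which replicate 1 at 3.36 CPM lay above the other samples (1.73 to 2.12 CPM), with a gap of 0.763 of the group's range. Without that library the log2 fold change at 24M was -0.99 (edgeR adjusted p = 0.0200). Col11a1 was not flagged, with 24M replicate 3 at 9.69 CPM and the other 24M samples at 2.58 to 3.87 CPM.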

How the results depend on the processing

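At 24M 1 collagen gene was called, 2 with the 24M libraries kept apart (Col20a1 beside Col6a4), and 1 to 2 when each library was left out. With all 4 groups in 1 fit the count was again 1, but the gene was Col20a1. At 29M 2 were called. DESeq2 gave 0, also with a zero-centred prior, no filter gave 4 (Col5a1 and Col6a2 added), all 4 groups in 1 fit gave 1 (Col27a1), and leaving out each library gave 0 to 3, with 0 without 29M replicate 3 and 1 without 3M replicate 2 or 29M replicate 1. The fit with no filter gave Col8a1 a far lower edgeR adjusted p than the main fit (0.000371 against 0.294) at the same fold change. The calls it added are therefore weak evidence. The cause of these changes was not tested. With 3M paired-end replicate 1 and 29M replicate 2, rich in Gm42418, both left out (chosen after seeing the data), 3 were called (Col5a1 added), and the sign turned for Col6a4 (-0.56), Col9a3 (-0.079), Col8a2 (-0.33), Col4a1 (0.034), Col15a1 (0.13) and Col20a1 (0.025), none of them called. Over the fits that left out 1 library the uncalled 29M fold changes crossed 0 for Col6a4 (-0.027 to 2.13), Col15a1 (-0.22 to 0.084), Col4a1 (-0.074 to 0.0024), Col8a2 (-0.18 to 0.28), Col6a3 (-0.51 to 0.40), Col25a1 (-0.093 to 0.049), Col3a1 (-0.48 to 0.0031) and Col1a2 (-0.36 to 0.061), and the uncalled 24M ones for Col9a3 (-0.0016 to 0.29), Col11a2 (-0.056 to 0.12), Col1a2 (-0.29 to 0.098) and Col6a2 (-0.20 to 0.092). At 24M the sign also turned for Col6a2 (0.0039) without 24M replicates 1 and 4 and for Col11a2 (-0.015) under the replicate block. A zero-centred prior shrank the 29M fold changes to 0.20 for Col6a1 and 0.24 for Col27a1. The difference between the ages passed for 0 collagen genes by edgeR, by DESeq2, with the 24M pair kept apart and without any 1 library (smallest adjusted p 0.164 to 0.715).

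With the replicate number as a replicate block, 1 collagen gene was called at 24M and 2 at 29M, the same genes as without it. Correlations between libraries with the same number were -0.175 to 0.0965. So few samples cannot tell whether the numbers stand for a pairing or a batch. Counts under about 1 CPM limit Col6a6, Col9a1, Col10a1, Col24a1 and Col28a1. They also touch Col6a4, the gene called at 24M, whose 24M values were 0.792 to 1.19 CPM, with 9 counts in the lowest sample.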
